A study of Mus musculus with 2 samples.

Results

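Striatal projection neuron-like cells were a small set of GABAergic cells in E14.5 mouse dorsal telencephalon. They were chosen by their own UMI counts (unique molecular identifiers, each marking 1 captured transcript). A cell needed at least 3 UMIs of Gad1 and Gad2 together, the enzymes that make GABA, and at least 1 UMI of Six3 or Isl1. It had no UMI of Lhx6, at most 2 UMIs of the cell cycle genes Mki67 and Top2a, and at most 2 UMIs of the excitatory neuron genes Neurod2 and Neurod6. Of 3182 retained cells (those with 1000 or more genes and no more than 10% of UMIs from mitochondrial genes, out of 4301 barcodes), 65 met these conditions. The 2 libraries were single-cell 3′ libraries of 1 group, labelled WT and named EomesDot in their titles, and they are called replicate 2 and replicate 4 here after the numbers in those titles. The study describes C57BL/6J embryos, and how these relate to the EomesDot name is not stated. No treatment was named, and with both libraries in the same group the comparisons below are between classes of cells, not between animals.

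Striatal projection neurons are the GABAergic output neurons of the striatum and arise in the lateral ganglionic eminence, a part of the ventral telencephalon. They send axons in a direct pathway, whose adult neurons carry the dopamine receptor Drd1, or an indirect pathway, whose neurons carry Drd2. Isl1 and, downstream of it, Ebf1 act in the direct pathway lineage, whereas Six3 and Sp9 act in the indirect pathway lineage. The cortex is instead populated by interneurons from the medial ganglionic eminence (MGE), which are marked by Lhx6, and from the caudal ganglionic eminence (CGE), in which Prox1, Nr2f2 and Sp8 are found. Sp8 also marks precursors of olfactory bulb interneurons, which likewise come from the lateral ganglionic eminence.

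The cells were unevenly spread over the libraries. Replicate 4 held 64 of 1971 retained cells, a share of 3.25% (95% exact binomial interval 2.51 to 4.13%). Replicate 2 held 1 of 1211, a share of 0.0826% (0.00209 to 0.459%). The intervals cover counting error only. Lhx6-positive GABAergic cells, chosen by the same conditions but with Lhx6 and without Six3 or Isl1, had close shares in both libraries, 51 cells (4.21%, 3.15 to 5.50%) in replicate 2 and 76 cells (3.86%, 3.05 to 4.80%) in replicate 4. Lhx6-negative GABAergic cells, which had no Lhx6, Six3 or Isl1 but at least 1 UMI of Sp8, Prox1 or Nr2f2, numbered 20 (1.65%) and 47 (2.38%). Dividing cells with Six3 or Isl1, which met every condition except that Mki67 and Top2a together had at least 3 UMIs, numbered 15 in replicate 4 (0.761%) and 0 of 1211 in replicate 2, which allows a share of up to 0.248% by a floor of 3 counts and 0.304% by the upper bound of the exact interval. Every value below is from replicate 4 unless the 1 cell of replicate 2 is named.

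**Figure D1:**
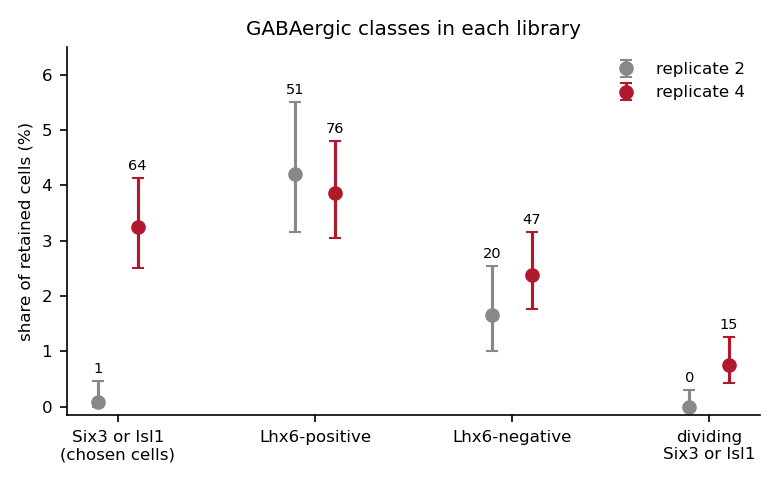
Share of retained cells (y axis, %) of 4 GABAergic classes (x axis) in replicate 2 (grey) and replicate 4 (red). Points are shares, bars are 95% exact binomial intervals and numbers are cells. The cells chosen by Six3 or Isl1 sit at 0.0826% in replicate 2 and 3.25% in replicate 4, whereas the intervals of the Lhx6-positive cells overlap.

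The whole data set comprised 40267872 UMIs in replicate 2 and 49422007 in replicate 4, with medians of 30872 and 23007 UMIs per retained cell. The 64 cells had 4296 to 79773 UMIs (median 13793.5) and a median of 4.02% mitochondrial UMIs, close to the 14417.5 UMIs and 3.16% of the Lhx6-positive cells of the same library. The libraries shared 3 cell barcodes, none of them in a chosen cell, and Scrublet marked none of the chosen cells as a doublet (14 calls in replicate 2 and 15 in replicate 4).

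The values that chose the cells were described first, without a test. In replicate 4 the cells held 331 of the 490 Six3 UMIs and 363 of the 444 Isl1 UMIs of all retained cells. Of the 64 cells, 30 had Isl1 but no Six3 (Isl1-only), 29 had Six3 but no Isl1 (Six3-only) and 5 had both. Isl1-only cells had 1 to 39 Isl1 UMIs (median 7) and Six3-only cells 1 to 39 Six3 UMIs (median 7). Isl1 lies at chr13:116298270-116309688 and Six3 at chr17:85613608-85626191 (GRCm38). The Six3 locus also carries the antisense gene Six3os1, so counts of these overlapping genes are uncertain where strand was not used.

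Near the thresholds, 11 cells entered with a single Six3 or Isl1 UMI, 1 with 3 Gad UMIs, 11 with 1 or 2 cell cycle UMIs and 7 with 1 or 2 Neurod UMIs. Just outside were 5 cells with 1 or 2 Gad UMIs, 15 dividing cells and 2 cells with 3 or more Neurod UMIs. A further 17 cells with Six3 or Isl1 had no Gad UMI, and together they held 95408 CPM (a gene's UMIs divided by all UMIs of the summed cells, scaled to the usual fixed total) of Ttr, the transthyretin gene of the choroid plexus. The chosen cells held 9.25 CPM of Ttr, as 1 UMI in each of 10 cells. Among cells with at least 3 Neurod UMIs and no Gad UMI, which should lack both genes, Six3 or Isl1 was found in 9 of 1028 in replicate 4 (median 25345.5 UMIs per cell) and in 2 of 699 in replicate 2 (median 33140 UMIs). Of the retained cells with Lhx6 and at least 3 Gad UMIs, 1 of 83 in replicate 4 and 1 of 57 in replicate 2 had Six3 or Isl1, a single UMI in each, and both exceeded another limit of the rule. The cell of replicate 2 had 659004 UMIs.

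The label was checked against the 2 of its markers that the rule had not used, since Gad2, Six3 and Isl1 chose the cells and say nothing about the label. Zfp503 was found in 39 of 64 cells (60.9%) and Ebf1 in 30 (46.9%). Zfp503 encodes a zinc finger protein of the developing striatum, and Ebf1 a transcription factor of direct pathway neurons. Of 7 striatal transcription factor genes (Ebf1, Zfp503, Foxp1, Foxp2, Rarb, Bcl11b and Meis2), a cell had a median of 5 with at least 1 UMI (range 2 to 7), and 51 of 64 cells had at least 4. The Lhx6-positive cells had a median of 2 in both libraries, and 2 of 76 in replicate 4 and 1 of 51 in replicate 2 reached 4. The Lhx6-negative cells had medians of 2 and 3, and 9 of 47 and 8 of 20 reached 4. After thinning each cell to 5000 UMIs, which left out 1 chosen and 3 Lhx6-positive cells, the medians were 4 and 1. The 943 excitatory cells had at least 3 Neurod UMIs, no Gad, Six3 or Isl1 UMI and at most 2 cell cycle UMIs. Their median was 4 before thinning, against 5 in the chosen cells, and 3 after it, against 4. Foxp1, Foxp2, Meis2 and Bcl11b were found in 64.4% or more of them, so this count does not by itself separate striatal from excitatory cells. Zfp503 was found in 0.954% and Ebf1 in 9.23% of excitatory cells.

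The marker set did not hold equally in both arms. Of the Isl1-only cells, 27 of 30 had at least 4 of the 7 genes, and 26 had Ebf1. Of the Six3-only cells, 19 of 29 had at least 4, 8 had Zfp503 and none had Ebf1. The Six3-only arm is therefore referred to by its chosen gene rather than as a uniform cell type. All 8 genes of a cholinergic and pallidal list, among them Lhx8, Chat and Nkx2-1, were at 0 UMIs in the 64 cells. Of the same 8 genes, 6 were at 0 in the Lhx6-positive, 7 in the Lhx6-negative and 8 in the dividing cells of replicate 4. These zeros therefore do not set the chosen cells apart.

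The 1 cell of replicate 2 had 9517 UMIs, of which 9 were Isl1, 9 were Gad2 and 5 were Gad1. It had 33 UMIs of Foxp2, 55 of Meis2, 25 of Bcl11b, 4 of Zfp503 and 3 of Rarb, and none of Ebf1 or Foxp1. It thus had 5 of the 7 striatal genes and no Six3.

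To ask what set these cells apart from the MGE-derived interneurons of the same tissue, their summed UMIs were compared with those of the Lhx6-positive cells. Striatal transcription factors were higher and MGE interneuron genes lower. Of 6884 genes with a mean of at least 20 CPM over both sums, 329 (4.78%) were at least 2-fold higher and 269 (3.91%) at least 2-fold lower in the Six3 or Isl1 cells, after adding 10 CPM to each level. All-gene changes centred on a log2 median of 0.03. Of 19 genes in the striatal transcription factor list, 18 reached 20 CPM, and of these 15 were higher and 1 was lower (median log2 difference 3.37). The filter lets a gene in through the class where it is high, so these counts describe the listed genes and were not tested as a set. The classes were formed from the same cells, and all folds between them are descriptions of 2 summed pools with counting intervals.

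**Figure D2:**
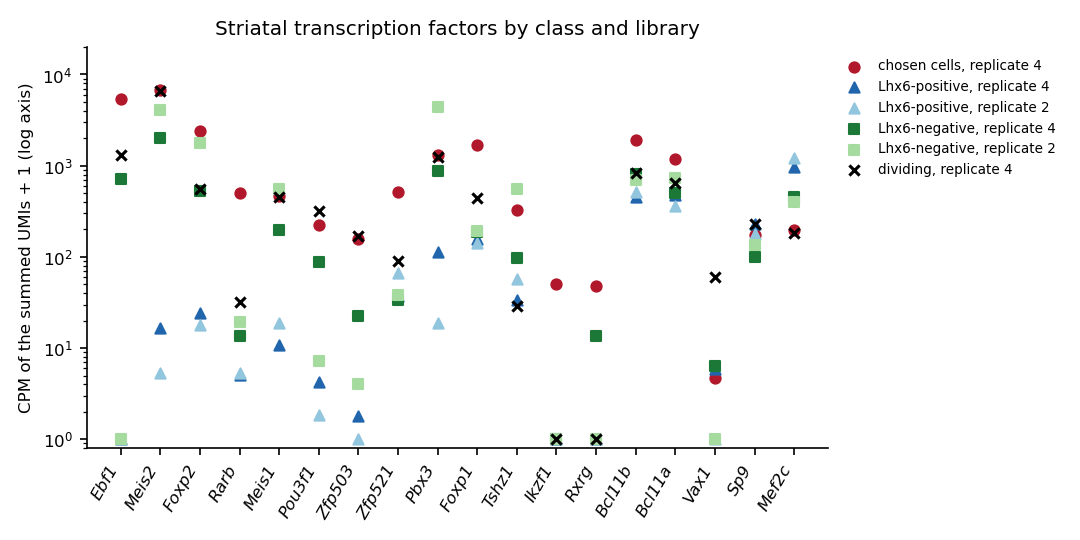
Levels of genes from the striatal transcription factor list (CPM of summed UMIs plus 1, log axis) in the chosen cells and the comparison classes, with 1 point per class and library. Ebf1 sits at 5409 CPM in the 64 cells of replicate 4 and at 0 in the Lhx6-positive cells of both libraries, whereas Sp9 is at 172 and 230 CPM in replicate 4.

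Ebf1 (chr11:44618100-45008096, GRCm38) was the first gene by size of the log2 difference from Lhx6-positive cells. Its UMIs per cell ranged from 0 to 575, with a median of 0, since 34 of the 64 cells had none. The sum was 5851 UMIs (5409 CPM), against 0 UMIs in the Lhx6-positive cells of both libraries, which made it at least 2192-fold higher against a floor of 3 counts in the replicate 4 sum.

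Meis2, a homeodomain cofactor of the lateral ganglionic eminence, was present in all 64 cells with 16 to 361 UMIs (median 85.5). Its level was 6712 CPM, against 15.6 CPM in Lhx6-positive cells of replicate 4 and 4.27 CPM in those of replicate 2, a 429-fold difference (95% interval 275 to 714). Foxp2, a forkhead factor found in striatal neurons, ranged from 0 to 335 UMIs (median 8) and was at 2382 CPM against 23.0 and 17.1 CPM. Foxp1, its paralogue (chr6:98925342-99522746), ranged from 0 to 216 UMIs (median 5.5) and was at 1664 CPM against 158 and 142 CPM, 10.5-fold higher (9.07 to 12.3). In both libraries the Lhx6-positive sums lay far below the level of the chosen cells, although Foxp1 was still detected in 68.4% of Lhx6-positive cells and Foxp2 in 11.8%.

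Zfp503 (chr14:21983959-21989601) was at 157 CPM against 1 UMI in Lhx6-positive cells, a 191-fold ratio (33.8 to 7590). Rarb, a retinoic acid receptor of the striatum, was at 498 against 4.11 CPM, although 1 cell held 27.3% of its UMIs. Bcl11b (Ctip2), which striatal and deep-layer cortical neurons share, was at 1903 against 454 CPM, a 4.19-fold difference (3.81 to 4.61). Meis1, Pou3f1, Zfp521, Pbx3 and Tshz1 were between 9.89-fold and 67.1-fold higher. Of these, Pbx3 was at 112 CPM in Lhx6-positive cells of replicate 4 and 17.9 CPM in those of replicate 2, so its fold was larger against replicate 2. Bcl11a was 2.52-fold higher, and Ikzf1 and Rxrg had no UMI in Lhx6-positive cells of either library and were at least 19.9-fold and 19.1-fold higher.

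Sp9 differed by less than 2-fold. Mef2c, a MADS box factor, was the listed gene that was lower, at 198 against 973 CPM, 4.92-fold lower.

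The genes of adult projection neuron signalling were largely low or undetected. Of 23 listed genes, 9 reached 20 CPM, 5 were higher and 1, Ptpn5, was lower. Drd2, the receptor of indirect pathway neurons (chr9:49340360-49408177), had 76 UMIs in 12 cells (70.3 CPM) and none in Lhx6-positive cells, at least 28.5-fold higher. Arpp21, a regulator of calmodulin signalling, was at 152 against 8.23 CPM, and the cannabinoid receptor gene Cnr1 and the G protein subunit gene Gnal were 2.91-fold and 2.64-fold higher. Drd1 had 5 UMIs in 4 cells, Penk 9 UMIs in 5 cells and Pdyn 2 UMIs, whereas Chrm4, Gpr6, Gpr52, Slc35d3 and Rasd2 were at 0 UMIs. The edgeR test given below called Drd2, Cnr1 and Gnal higher, but not Arpp21, and it did not call Ptpn5 lower.

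MGE interneuron genes had a median log2 difference of -4.32 over the 8 of 9 that reached 20 CPM, which they could do through the Lhx6-positive cells alone. Nxph1, a neurexophilin, was at 24.96 against 6847 CPM, 274-fold lower, and 1 cell held 81.5% of its UMIs in the chosen cells. The somatostatin gene Sst had 3 UMIs, all in 1 cell, against 916 CPM. Npy, encoding neuropeptide Y, had none, and Sox6, a factor of MGE interneuron maturation, was 21.2-fold lower.

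The GABAergic machinery was less separated. The vesicular transporter gene Slc32a1 was at 82.3 against 100.4 CPM, and Abat and Dlx6 were also within 2-fold. The homeobox genes Dlx1 and Dlx2 were 2.70-fold and 4.34-fold lower. Of the CGE and olfactory bulb genes, edgeR called 0 of 9 in either direction. The levels of Adarb2 (adjusted p = 0.458) and Prox1 (0.464) were above, and those of Nr2f1 (0.338), Nr2f2 (0.749) and Npas1 (0.159) below, the levels in Lhx6-positive cells of replicate 4. The Lhx6-positive cells of replicate 2 held less Adarb2 (12.8 against 337 CPM in replicate 4) and Prox1 (2.56 against 30.4 CPM), so both folds were larger against that library. The direction of Nr2f2 was not stable, since its log2 difference was -1.82 against Lhx6-positive cells of replicate 4 and 0.24 against those of replicate 2.

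**Figure D3:**
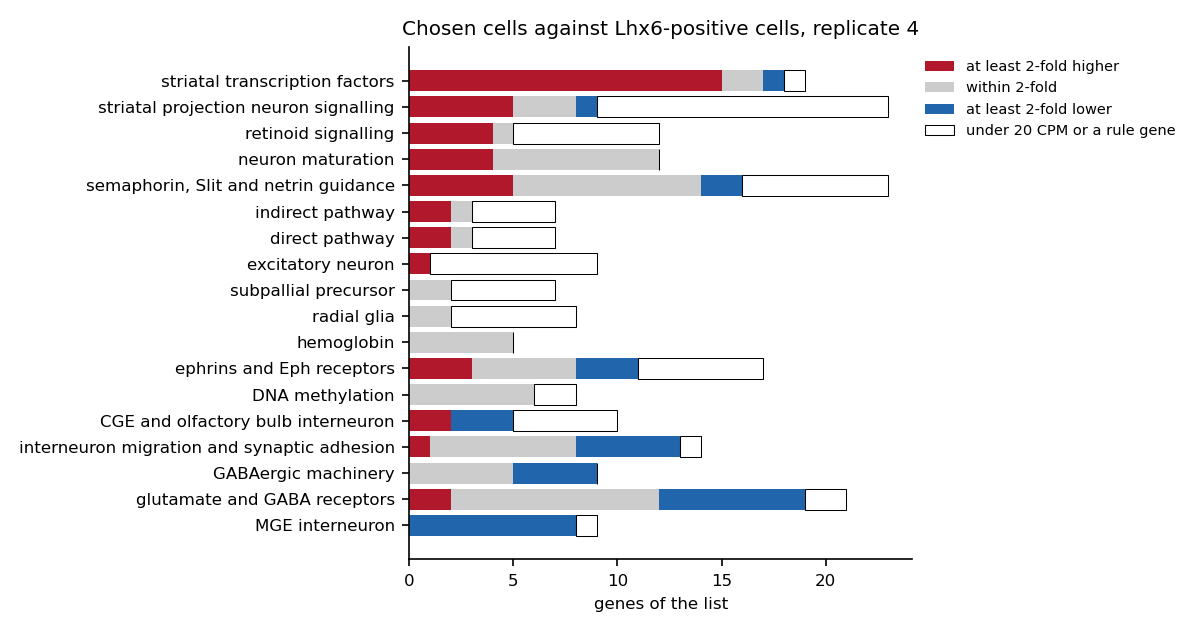
Number of genes (x axis) of each gene list (y axis) that were at least 2-fold higher (red), within 2-fold (grey), at least 2-fold lower (blue) or under 20 CPM (white) in the chosen cells against Lhx6-positive cells of replicate 4. Of the striatal transcription factors 15 were higher, and of the MGE interneuron genes 8 were lower.

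Of 23 listed guidance genes, 16 reached 20 CPM. Of these, 5 were at least 2-fold higher (beside 4.78% of all genes), 2 at least 2-fold lower (3.91%) and 9 within 2-fold. By edgeR 4 of 22 were called higher, beside 1.84% of all genes tested. Slit3, a secreted guidance cue, was at 424 against 12.3 CPM (34.4-fold, 20.6 to 61.9). Robo1, a Slit receptor, was at 3016 against 265 CPM (11.4-fold, 10.1 to 12.8), and Robo2, another Slit receptor gene, was 3.92-fold higher. The netrin gene Ntn1 had 54 UMIs against 1, a 60.7-fold ratio (10.4 to 2441), while Unc5c, a netrin receptor gene, was 12.1-fold lower and 1 cell held 76.2% of its UMIs.

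Among ephrins and Eph receptors, 3 of 11 were at least 2-fold higher (Ephb1, Epha4 and Epha7), beside 4.78% of all genes. A further 3 were at least 2-fold lower (Epha5, Epha3 and Efnb2), beside 3.91%. Of these genes edgeR called only Ephb1 higher (adjusted p = 0.00453) and Epha5 lower (0.0290). Ephb1 was at 900 against 14.0 CPM (64.3-fold, 40.0 to 111) and Epha4 at 776 against 90.5 CPM, whereas Epha5 was at 716 against 5536 CPM. Epha7 was at 212 against 55.9 CPM, but the Lhx6-positive cells of replicate 2 had 136.8 CPM, against which it was under 2-fold. Efnb2, which encodes an ephrin ligand, was at 101 CPM against 253 CPM.

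The neuregulin receptor gene Erbb4, which guides migrating interneurons, was at 818 against 17781 CPM. It was found in 12 of the 64 cells (18.8%) and in all Lhx6-positive cells, and 1 chosen cell held 51.6% of its UMIs. Its ligand gene Nrg1 had the opposite order, 1685 CPM against 494 CPM in Lhx6-positive cells of replicate 4 and 138 CPM in those of replicate 2. Ackr3, which encodes a chemokine scavenger receptor, was 33.1-fold lower, Reln 15.6-fold lower and Nrg3 11.8-fold lower.

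Receptor subunit genes included Gria4 and Grik1, which were 13.3-fold and 10.5-fold lower, and Grin2a, which was higher but in 4 cells of which 1 held 62.7% of its UMIs. Neurofilament genes Nefl and Nefm were 25.5-fold and 6.83-fold higher, and Rbfox1 and Gap43 were 2.19-fold and 2.16-fold higher. The DNA methylation genes, on which the study centred, differed by less than 2-fold in 6 of 6 that reached 20 CPM. Dnmt1 was at 43.5 against 46.1 CPM (ratio 0.943, 0.626 to 1.42) and Dnmt3a at 115 against 68.3 CPM.

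Because only replicate 4 held more than 1 chosen cell, the planned edgeR quasi-likelihood test was fitted with this lone sum, which is assumed to vary like the 6 sums of the other classes. It tested 11230 genes against Lhx6-positive cells and called 207 (1.84%) higher and 126 (1.12%) lower at a Benjamini-Hochberg adjusted p-value under 0.05. Of 18 tested striatal factors, 11 were called higher and Mef2c lower. Called higher were Rarb (edgeR adjusted p = 0.00116), Foxp1 (0.00224), Meis2 (0.00401), Zfp503 (0.00408), Zfp521 (0.00517), Foxp2 (0.00537) and Bcl11b (0.0101). Ebf1 did not reach the threshold (edgeR adjusted p = 0.0687), nor did Rxrg (0.0574), Pbx3 (0.106) or Tshz1 (0.141), or the signalling genes Ptpn5 (0.0587) and Arpp21 (0.0607). Of the guidance, migration, receptor and maturation genes given above, Robo2 (edgeR adjusted p = 0.123), Unc5c (0.204), Nrg1 (0.137), Reln (0.123), Nrg3 (0.165), Grik1 (0.130), Grin2a (0.0621), Rbfox1 (0.104) and Gap43 (0.174) were not called either. Among MGE interneuron genes 8 of 9 were called lower.

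The calls rested on both Lhx6-positive sums. Without the Lhx6-positive sum of replicate 2, 88 genes were called, and without that of replicate 4, 149. Many of the 48 named genes called were no longer called in these fits, although each kept its sign. Both fits share the sum of the chosen cells, and genes named by size had to keep their sign against replicate 2. The shared sign is therefore no separate check.

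A second comparison was made with Lhx6-negative GABAergic cells, the class nearest in lineage to cells from the lateral and caudal eminences. Of 6894 genes, 317 (4.60%) were at least 2-fold higher and 240 (3.48%) at least 2-fold lower in the Six3 or Isl1 cells. Of the striatal factors, 14 of 18 were at least 2-fold higher and 1, again Mef2c, at least 2-fold lower. By edgeR 4 of 18 were called higher, beside 0.285% of all genes tested, and Mef2c was not called (adjusted p = 0.194). The median log2 difference was 1.501, against 3.37 for the same list in the comparison with Lhx6-positive cells.

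Foxp1 was at 1664 against 184 CPM (9.03-fold, 7.40 to 11.1) and Zfp503 at 157 against 21.7 CPM (7.25-fold). Rarb was 39.4-fold higher (19.0 to 98.5). Ebf1 was at 717 CPM in the Lhx6-negative cells of replicate 4, from 3 of the 47 cells (6.38%), and at 0 CPM in those of replicate 2. Meis2 was at 1987 and 4048 CPM in those classes, closer to the 6712 CPM of the chosen cells. Sp9 was at 97.5 CPM there and at 172 CPM in the chosen cells.

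The Lhx6-negative class was not the same mixture in each library. Nr2f2, one of the genes that chose it, was at 871 CPM in replicate 4 and 148 CPM in replicate 2, and Prox1 at 231 and 15.4 CPM. Tshz1, a zinc finger factor of the dorsal lateral eminence, was at 95.7 CPM in replicate 4 and 557 CPM in replicate 2, on either side of the 325 CPM of the chosen cells, and Meis1 was likewise at 197 and 557 CPM against 465 CPM. Of the 557 genes past 2-fold, 492 kept the sign against the Lhx6-negative cells of replicate 2, compared with 583 of 598 in the comparison with Lhx6-positive cells.

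The genes with the greatest differences were Slit3 (424 against 1.81 CPM), Inpp4b, which encodes a phosphatase but of which 1 cell held 78.0% of the UMIs and which was at 86.2 CPM in the Lhx6-negative cells of replicate 2, and Rasgef1b (720 against 19.9 CPM). Hs3st4 and Col25a1 had no UMI in the Lhx6-negative cells of replicate 4. On the lower side were Pdzrn3 (208-fold, 70.7 to 1016), Sox6 (23.9-fold), Nxph1 (26.6-fold), Erbb4 (17.7-fold), Tcf4 (18.2-fold) and Npas3 (13.8-fold). Tcf4 was also 22.8-fold lower than in Lhx6-positive cells. Il1rapl2 and Zbtb16 had no UMI in the chosen cells, and were at least 120-fold and 61.2-fold lower. Against the Lhx6-negative cells of replicate 2 several of these gaps were smaller. In those cells Pdzrn3 was at 169 CPM instead of 578 CPM, Sox6 at 693 instead of 2448 CPM, Nxph1 at 123 instead of 665 CPM, Npas3 at 1117.5 instead of 3520 CPM and Il1rapl2 at 33.9 instead of 332 CPM. Of the genes in this paragraph, edgeR called Slit3, Rasgef1b, Erbb4 and Tcf4. It did not call Zbtb16 (adjusted p = 0.0610), Pdzrn3 (0.0764), Col25a1 (0.0920), Sox6 (0.104), Hs3st4 (0.137), Nxph1 (0.214), Inpp4b (0.217), Npas3 (0.237) or Il1rapl2 (0.418).

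Against Lhx6-negative cells, edgeR tested 11227 genes and found 32 (0.285%) higher and 21 (0.187%) lower at a Benjamini-Hochberg adjusted p-value under 0.05. With the library as a replicate block 109 genes were called in all, against 53 without it, and 84 without the Lhx6-negative sum of replicate 2. The named genes called higher included Slit3 (edgeR adjusted p = 0.00433), Rarb (0.00433), Foxp1 (0.00530), Sema3a (0.00893), Zfp521 (0.0141) and Zfp503 (0.0329). Erbb4 (0.0163), Tcf4 (0.0162), Dlx1 (0.0191) and Gabra3 (0.0384) were called lower. Ebf1 (0.417), Meis2 (0.434) and Foxp2 (0.512) were not called by edgeR against this class.

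The third comparison was with the 15 dividing cells that carried Six3 or Isl1. Genes of the cell cycle were lower by construction, and most, but not all, of the listed maturation and receptor genes were at least 2-fold higher. Of 7162 genes, 813 (11.4%) were at least 2-fold higher and 947 (13.2%) at least 2-fold lower, around an all-gene median of -0.14 on the log2 scale. With TMM-scaled totals the split was 999 higher and 715 lower of 7079 genes around a median of 0.04, so the balance of the directions depended on the scaling. Each class was 1 sum of 1 library, so these differences have no replicate check and no p-value is given for them.

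Kif11, Cenpe, Knl1, Prc1 and Kif4, all genes of mitosis, were among the 10 with the greatest lower-side differences, and Knl1 and Kif4 had no UMI in the chosen cells. Of the 9 GABAergic machinery genes, Dlx1, Dlx2 and Dlx6os1 were 8.22-fold, 9.02-fold and 5.11-fold lower, 1 was at least 2-fold higher and 5 were within 2-fold. Of 7 subpallial precursor genes, 6 reached 20 CPM, which they could do through the dividing cells alone. All 6 were at least 2-fold lower, beside 13.2% of all genes.

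Meis2 (6712 against 6594 CPM), Meis1, Pbx3 and Zfp503 (157 against 170 CPM) were at nearly the same level in both classes. Foxp1, Foxp2 and Bcl11b were 3.75-fold, 4.30-fold and 2.32-fold higher outside division. Ebf1 was detected in 1 of the 15 dividing cells (6.67%), which held all of its 374 UMIs, and in 46.9% of the chosen cells. Drd2, Ikzf1 and Rxrg had no UMI in the dividing cells.

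Of the maturation genes, 8 of 12 were at least 2-fold higher. Mapt, encoding the microtubule protein tau, was 25.5-fold higher (12.3 to 63.8), and Syt1, a synaptic vesicle calcium sensor, was 10.5-fold higher (7.68 to 14.7). Glutamate and GABA receptor genes were at least 2-fold higher for 13 of 18, and Gria1 and Grm5 had no UMI in the dividing cells. Of Grm5, 1 chosen cell held 54.2% of the UMIs. Cntn5, a contactin, went from 0 to 2338 CPM, and Robo2 was 40.7-fold higher.

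Among the chosen cells themselves, the Isl1-only and Six3-only arms were next compared on the genes the rule had not used. The arms differed in nearly exclusive sets of factors, with Ebf1 in the Isl1-only cells and Sp9, Sox2 and Tshz1 in the Six3-only cells. Of 6879 genes, 238 (3.46%) were at least 2-fold higher and 346 (5.03%) at least 2-fold lower in the Isl1-only cells. The arms had medians of 11311 and 15665 UMIs and of 4.75% and 3.79% mitochondrial UMIs, whose part in these differences was not tested. Each arm was 1 sum of 1 library, so the differences between the arms have no replicate check, and they are given as descriptions of these cells with no p-value.

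**Figure D4:**
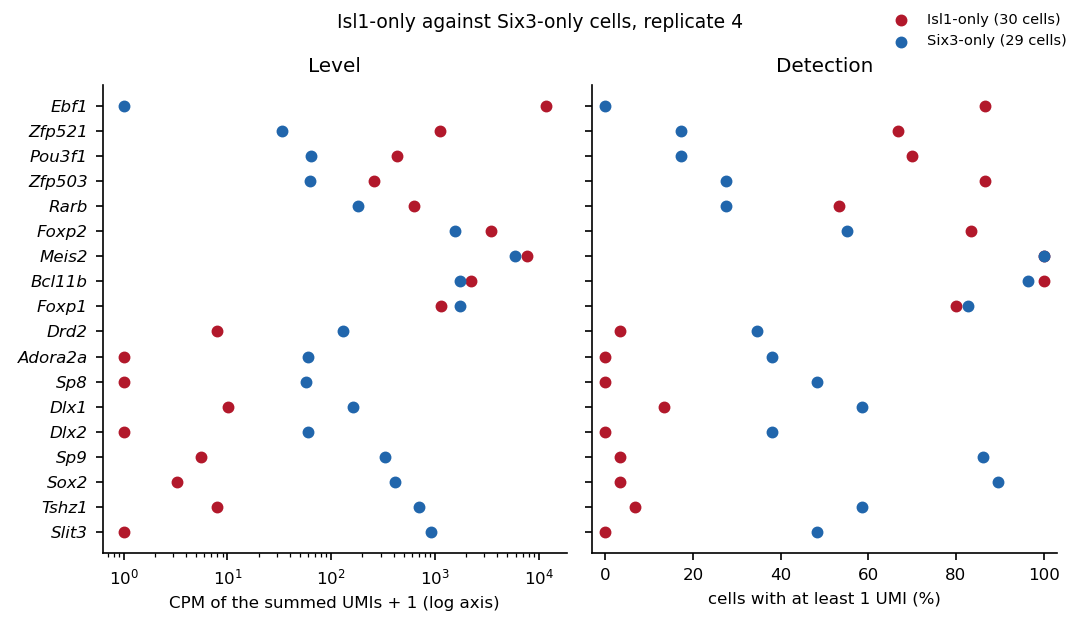
Left, level (CPM of summed UMIs plus 1, log axis) and right, share of cells with at least 1 UMI (%), of genes named for the arms in Isl1-only cells (red, 30 cells) and Six3-only cells (blue, 29 cells). Ebf1 is found in 86.7% of Isl1-only and 0% of Six3-only cells, and Sp9 in 3.33% and 86.2%.

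Ebf1 ranged from 0 to 575 UMIs (median 150) in Isl1-only cells, 26 of 30 of which had it, and was at 0 in all 29 Six3-only cells. The sums were 11743 and 0 CPM, at least 1928-fold apart. Zfp521, a zinc finger partner of Ebf1, was at 1108 against 32.5 CPM (34.1-fold, 20.8 to 60.2), and Pou3f1 at 429 against 62.9 CPM. Zfp503 was found in 26 Isl1-only and 8 Six3-only cells (257 against 60.9 CPM, 4.22-fold). Tac1, the substance P precursor of direct pathway neurons, had 41 UMIs in 2 Isl1-only cells and 1 UMI in a Six3-only cell.

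Sp9 (chr2:73271926-73275771) ranged from 0 to 18 UMIs (median 5) in Six3-only cells, 25 of 29 of which had it, and was found in 1 Isl1-only cell. Its level was 331 CPM there and 4.59 CPM in the Isl1-only cells, 72.1-fold lower (19.6 to 601). Drd2 was found in 10 Six3-only cells (64 UMIs) and in 1 Isl1-only cell (3 UMIs), and Adora2a, the adenosine receptor of indirect pathway neurons, in 11 and 0 cells. Of the 12 cells with Drd2 over all arms, 11 also had Sp9 and 1 had Ebf1. Ebf1 and Sp9 were found together in 1 of the 64 cells, which had both Six3 and Isl1. Ikzf1 went against the rest of the indirect pathway list, with 25 UMIs in 6 Isl1-only cells and none in Six3-only cells.

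Sox2, a factor of neural precursors, was found in 26 of 29 Six3-only cells with up to 40 UMIs. It was found in 1 of 30 Isl1-only cells, and the neighbouring transcript Sox2ot was 21.4-fold lower in these cells. Summed over all chosen cells, Sox2 was near its level in the interneuron classes. The edgeR log2 difference was -0.25 against Lhx6-positive and -0.33 against Lhx6-negative cells. The separate arms were not compared with those classes. Dlx1 was 17.5-fold lower in the Isl1-only cells and Dlx2 had no UMI there. Slc32a1 was at 89.5 and 89.3 CPM (ratio 1.002, 0.634 to 1.58).

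Of the 15 guidance genes that reached 20 CPM, 7 were at least 2-fold higher in Isl1-only cells, 5 at least 2-fold lower and 3 within 2-fold. Slit3 had no UMI in Isl1-only cells, and Plxna4 was 5.83-fold lower there, with 78.8% of its UMIs in those cells from 1 cell. Robo2, Dcc and Ntn1 were 3.202-fold, 2.35-fold and 13.0-fold (3.21 to 114) higher, whereas Robo1 was at 3182 and 2712 CPM. Erbb4 was at 11.5 against 1785 CPM, but was found in only 7 of the 29 Six3-only cells. Nrg1 was 3.88-fold lower in Isl1-only cells, and the retinoic acid receptor gene Rarb was 3.52-fold higher. Dach2, a transcription cofactor gene, had no UMI in Isl1-only cells. Nell1, among the 10 named genes with the greatest difference, had all 102 of its Isl1-only UMIs in 1 cell.

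Genes of the CGE and olfactory bulb list that reached 20 CPM could do so through the Six3-only cells alone, so they are given as values. In Isl1-only against Six3-only cells, Nr2f2 was at 6.88 against 132 CPM, Prox1 at 13.8 against 150.2 CPM and Sp8 at 0 against 28 UMIs in 14 Six3-only cells.

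The Six3-only cells were themselves divided by Foxp1. This split was chosen after its values had been seen, and its sides are described without a test. Of the 29 cells, 7 had 42 to 201 Foxp1 UMIs (2504 to 10846 CPM) and 22 had 0 to 13 (0 to 1297 CPM). Median UMIs were 16770 and 12386.5 per cell. Zfp503 was found in 7 of the 7 Foxp1-high cells and in 1 of the 22 Foxp1-low cells, and Drd2 in 6 and 4 cells (367 against 34.2 CPM). Adora2a was found in 6 and 5 cells, Penk in 3 and 0, and Rarb in 5 and 3.

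The Foxp1-low cells carried other genes. Tshz1 was found in 16 of 22 and in 1 of 7 Foxp1-high cells (969 against 21.2 CPM). Sp8 was found in 14 and 0 cells, Nr2f2 in 10 and 0, Prox1 in 8 and 0 and Sox6 in 6 and 0. Foxp2 was found in 14 of the Foxp1-low and 2 of the Foxp1-high cells, and Nlgn1, a neuroligin, in 11 and 0. Erbb4 was found in 6 and 1 cells, with 52.1% of the Foxp1-low UMIs in 1 cell. Six3 itself, Sp9 (311 against 382 CPM), Sox2 (433 against 367 CPM), Meis2 (5609 against 6889 CPM) and Nrxn3 were on both sides. Foxp1 and Foxp2 were found together in 12 of 29 Six3-only cells and in 23 of 30 Isl1-only cells.

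**Figure D5:**
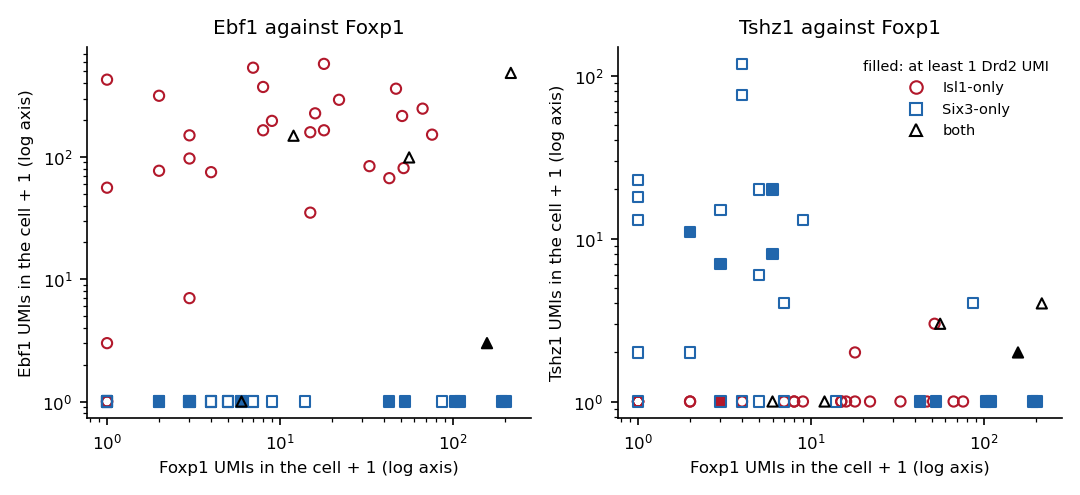
UMIs per cell plus 1 (log axes) of Ebf1 (left) and Tshz1 (right) against Foxp1 for the 64 cells of replicate 4. Circles are Isl1-only, squares Six3-only and triangles cells with both, and filled symbols had at least 1 Drd2 UMI. No Six3-only cell has an Ebf1 UMI, and the Six3-only cells with the highest Tshz1 have 0 to 13 Foxp1 UMIs.

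The 5 cells with both Six3 and Isl1 had 7089 to 79773 UMIs. They carried 1 to 7 Six3 and 2 to 44 Isl1 UMIs, and 4 of them had Ebf1, 5 had Zfp503 and 5 had Foxp1. In 1 of them 12 Sp9 and 9 Drd2 UMIs stood beside 2 of Ebf1.

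Markers of other tissues stayed low in the chosen cells. A list of 10 meningeal, vascular and microglial genes summed to 6.47 CPM against 7.40 CPM in Lhx6-positive cells, and 6 of the 10 were at 0 UMIs. The 5 hemoglobin genes summed to 377 and 308 CPM, so blood-derived transcripts were at like levels in both classes. The 5 Zic genes summed to 38.8 and 11.5 CPM. Of 9 excitatory neuron genes, Sox5 alone reached 20 CPM, at 293 against 111 CPM, and it was 26.1-fold lower in the Isl1-only than in the Six3-only cells.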

How the data were processed

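The authors prepared droplet 3′ libraries from E14.5 dorsal telencephalon and, per the labels, processed the reads with Cell Ranger 7.0.0 against mm10; whether intronic reads were counted is not stated. The deposited matrices hold raw UMI counts for 32285 genes, and no column was left unused.

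Barcodes under 1000 genes or over 10% mitochondrial UMIs were removed and the others assigned to classes by UMI thresholds. Doublets were called with Scrublet (scanpy 1.11.5), and calls were left out as an alternative. The members and the 21 gene lists were chosen with earlier results of these data known. UMIs were summed per class and library, with at least 5 cells per sum, and given as CPM. Folds used 10 CPM added to each level for thresholds and raw ratios for printed values, with 95% exact intervals that cover counting error only. Fold bounds against 0 used a floor of 3 counts. Genes of the rule were left out.

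The replicated edgeR quasi-likelihood design could not be fitted as planned, because replicate 2 held 1 member. The fit (edgeR 4.0.16, R 4.3.3, Benjamini-Hochberg adjustment) therefore used 7 sums. Dividing cells and the arms were 1 sum on each side, and those comparisons are given as levels without a test. Fits that borrowed the spread of other classes were run but not used, and that between the arms was chosen after the data were seen. Whether the libraries came from separate animals or litters is not given beyond their numbers, so p-values measure the spread between these sums. It was tested on simulated data first. Sums of the same library deviated together (r = 0.195, 0.366 and 0.263 across 6931 genes for 3 pairs of classes), so the library was also fitted as a replicate block.

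Genes were named as members of the striatal factor and pathway lists, up to 8 of each other list, and up to 10 per direction and comparison with at least 50 CPM and the same sign against the comparator of replicate 2. The last part replaced a condition on calls, which could not be met. Some genes the rule names are not reported here, but they stay in the counts over genes and lists. Alternatives were other filters, added CPM, thinning to 5000 UMIs, TMM scaling, DESeq2 1.42.0 and leaving out sums. Positions come from the RefSeq table of GRCm38.p6, matched by symbol.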

Additional observations from a re-analysis of the deposited data

Results flagged for a closer look

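Barcodes that the mitochondrial filter removed also carried the signature. In replicate 4, 5 barcodes with over 10% mitochondrial UMIs met every UMI condition for Six3 or Isl1 cells, and none did in replicate 2. They had a median of 4194 UMIs, and they held 16 Isl1 and 2 Six3 UMIs together. Meis2 was found in 5 of them and Foxp1 in 4. These barcodes enter no comparison above.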

How the results depend on the processing

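The share of Six3 or Isl1 cells in replicate 4 was 2.31% with at most 5% mitochondrial UMIs, and the pooled share was 0.0826 to 3.25% when either library was left out. Against Lhx6-positive cells, edgeR called 333 genes; DESeq2 called 698, a fit without the low-count filter 650, a fit of the compared classes alone 526, and fits leaving out a Lhx6-positive sum 88 to 149. Against Lhx6-negative cells 53 were called; DESeq2 gave 328, no low-count filter 288, the replicate block 109, and leaving out a Lhx6-negative sum 65 to 84. With the block, 364 genes were called against Lhx6-positive cells, and 46 of 48 named calls held there and 13 of 13 against Lhx6-negative cells. Named calls were lost elsewhere: against Lhx6-positive cells 38 of 47 held after thinning and 42 of 48 with at most 5% mitochondrial UMIs, and against Lhx6-negative cells 7 of 13 in a fit of the compared classes alone. Fits of the dividing and arm comparisons that borrow the spread of other classes were also run. They have no replicate on either side and are not used above. Against dividing cells such a fit called 926 genes, and 202 after thinning. Between the arms it called 20, 143 by DESeq2, 125 without the low-count filter, 43 with the block and 12 with at least 2 Six3 or Isl1 UMIs. The causes of these shifts were not tested.

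Past 2-fold against Lhx6-negative cells were 557 genes, 843 with a mean of at least 5 CPM and 859 after thinning. Between the arms they were 584, 885 with 1 CPM added, 1003 with at least 5 CPM and 1325 after thinning. Directions reversed with the comparator of replicate 2 for Nr2f2 against Lhx6-positive cells (log2 difference 0.24), and against Lhx6-negative cells, where 54 of 74 named differences stayed past 2-fold and 6 reversed, among them for Gabrg3 (-0.36), Nrg3 (0.63), Robo2 (-0.23), Meis1 (-0.26) and Tshz1 (-0.76). Unc5c against dividing cells was 1.60 with at least 2 Six3 or Isl1 UMIs. Fits of the dividing and arm comparisons with the compared classes alone were not run, since they have no residual degrees of freedom, nor were fits without the members of replicate 4.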

Other observations

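Genes outside the lists also differed in level. Zfhx3 and Zfhx4, zinc finger homeobox factors, were at 2153 and 821 CPM in the Six3 or Isl1 cells of replicate 4 and at 13.2 and 12.3 CPM in the Lhx6-positive cells. Hs6st3, a heparan sulfate sulfotransferase gene, was at 1227 against 9.87 CPM. Dpp10, which encodes a potassium channel partner, was at 43.5 against 3473 CPM, and the potassium channel gene Kcnc2 at 15.7 against 577 CPM. Nxph2, a relative of Nxph1, had no UMI in the chosen cells and was at 282 CPM in the Lhx6-positive cells. Between the arms, Mgat4c was at 2306 CPM in Isl1-only and 38.6 CPM in Six3-only cells, Lingo2 at 2047 and 67.0 CPM, and Angpt1, the angiopoietin gene, at 624 and 16.2 CPM. Tnr, encoding tenascin-R, had the opposite order, at 18.4 and 625 CPM. Egfem1 was at 410 CPM against 0 UMIs in Lhx6-positive cells, with 41.0% of its UMIs from 1 cell. Against Lhx6-positive cells edgeR did not call Dpp10 (adjusted p = 0.0714) or Egfem1 (0.174), and it called the other 5 genes given for that comparison.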
